A study of Mus musculus with 9 samples.

Results

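The transcripts that carry the names of 9 mouse genes were on average lower in treated 4T1 cells than in the negative control, NC. The genes are Fhl2, Leo1, Mpc2, Sarnp, Kdm4dl, Bola1, Fdx2, Nap1l4 and Fam111a. Assembled transcripts without a gene name were listed at all 9 loci, and their sum lay above NC at most of them. The 9 genes are 9 of the 52325 gene names in the table of transcript abundances. They were picked by name because their named transcripts were lower in treated cells than in NC, so every value of a member or its locus against NC is a description and carries no test; only genes that are no members are tested against NC. Every row with the same locus identifier was then taken: 99 transcripts, of which 38 carry a member's name, 29 carry no name and 32 carry the name of another gene at the locus. The label under which they were collected, named transcripts that shift to unnamed ones, held for Fhl2, Leo1, Mpc2, Bola1 and Nap1l4 in both treated groups, apart from 1 library of the siRNA label at Leo1. It held for Sarnp with MK1775 and for Fdx2 in the other treated group, it was not borne out at Kdm4dl, where the summed unnamed transcripts overlapped NC, and at Fam111a it rested on a single library.

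RNA was sequenced from 4T1, a mouse mammary carcinoma cell line, at day 2, in 9 libraries. MK1775, or adavosertib, which inhibits the cell-cycle kinase Wee1, was given to the cells of 3 libraries. Another 3 carry the label Wee1 siRNA, and 3 are a negative control, NC, whose vehicle or control siRNA the labels do not state. Wee1 itself had 15, 14.7 and 16.8 FPKM with MK1775, 13.1, 15.1 and 15.3 FPKM in the libraries labelled Wee1 siRNA, and 11.5, 10.5 and 11 FPKM in NC. As it was not lower where the siRNA was named, that group is called by its label, and a direction drawn from it rests on the label. Its libraries are numbered 1 to 3, and the labels do not say whether a number marks a repeat or a different siRNA, so the group's means, SDs and tests may pool unlike treatments; they are called library 1, 2 and 3 below. The unit FPKM is sequenced fragments relative to transcript length and to the mapped fragments of the library, so it allows levels of transcripts of unlike length to be set side by side.

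A gene can be transcribed from more than 1 start, and a transcript can also run on from an upstream neighbour into the next gene, which joins exons of both in a read-through RNA. Assembly programs such as StringTie build transcripts from spliced reads and keep the reference name only where the structure is that of a reference transcript. A transcript with another first exon, or with exons of neighbouring genes, can therefore stand in a table without a name, and reads in exons that both kinds share are divided between them by estimation. The members themselves have separate jobs: Fhl2 is a LIM-domain cofactor of transcription factors, Leo1 a subunit of the Paf1 complex that travels with RNA polymerase, Sarnp an RNA-binding partner of the mRNA export machinery, and Nap1l4 a histone chaperone. Mpc2 is a subunit of the mitochondrial pyruvate carrier, Bola1 and Fdx2 act in the mitochondrial iron-sulphur protein pathway, and human FAM111A is a protease linked to DNA replication.

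Sequences before the annotated starts are shown for 4 genes, because the unnamed transcripts described below begin elsewhere than the main named transcript: Fhl2 with its separate annotated starts, Leo1, and the neighbours Sarnp and Dnajc14, whose exons are joined in unnamed transcripts. Each runs from 250 bases before to 50 after a start in RefSeq (GRCm38.p6, a build other than the GRCm39 of the values, so they could not be laid on the unnamed 5′ ends). Of the 9 members, 7 were in the RefSeq promoter table. Capitals mark the motif TATAAA (called TATA here), the motif CCAAT and a GC box spelled GGGCGG, each searched on both strands.
Fhl2, distal start, chr1:43196712-43197011, minus strand: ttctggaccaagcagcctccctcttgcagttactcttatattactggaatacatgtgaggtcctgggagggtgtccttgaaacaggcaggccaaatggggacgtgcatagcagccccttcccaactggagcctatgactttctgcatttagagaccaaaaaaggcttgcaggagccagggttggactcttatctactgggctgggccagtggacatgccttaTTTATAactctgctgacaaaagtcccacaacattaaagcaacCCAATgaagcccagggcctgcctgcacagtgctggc
Fhl2, proximal start, chr1:43163912-43164211, minus strand: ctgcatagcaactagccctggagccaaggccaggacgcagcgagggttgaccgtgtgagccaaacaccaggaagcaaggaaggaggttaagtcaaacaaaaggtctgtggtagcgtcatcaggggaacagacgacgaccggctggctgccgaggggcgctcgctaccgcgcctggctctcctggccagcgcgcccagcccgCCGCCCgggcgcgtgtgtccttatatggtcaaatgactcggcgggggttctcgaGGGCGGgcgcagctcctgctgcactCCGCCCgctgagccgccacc
Leo1, chr9:75441274-75441573, plus strand: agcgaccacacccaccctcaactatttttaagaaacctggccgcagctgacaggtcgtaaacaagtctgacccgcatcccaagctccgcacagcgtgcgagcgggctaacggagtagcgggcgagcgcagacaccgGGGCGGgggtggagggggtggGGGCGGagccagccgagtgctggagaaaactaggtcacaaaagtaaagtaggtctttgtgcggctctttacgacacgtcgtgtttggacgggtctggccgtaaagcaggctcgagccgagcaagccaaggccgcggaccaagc
Sarnp, chr10:128821514-128821813, plus strand: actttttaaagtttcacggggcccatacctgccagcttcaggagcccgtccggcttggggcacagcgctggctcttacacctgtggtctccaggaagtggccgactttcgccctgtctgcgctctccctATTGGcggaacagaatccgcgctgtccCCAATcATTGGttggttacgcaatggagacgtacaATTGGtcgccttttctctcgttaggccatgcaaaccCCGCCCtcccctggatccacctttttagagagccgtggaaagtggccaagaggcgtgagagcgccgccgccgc
Dnajc14, chr10:128805304-128805603, plus strand: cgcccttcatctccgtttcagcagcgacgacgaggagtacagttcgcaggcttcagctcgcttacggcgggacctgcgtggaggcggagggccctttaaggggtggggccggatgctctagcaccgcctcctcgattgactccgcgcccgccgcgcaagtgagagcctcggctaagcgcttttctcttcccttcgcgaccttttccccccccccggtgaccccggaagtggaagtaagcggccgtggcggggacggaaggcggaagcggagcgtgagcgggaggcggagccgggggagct
The Fhl2 windows differ in make-up: the proximal has 27 CpG and 66.0% GC with 3 GC boxes, and the distal has 1 CpG and 51.3% GC with 1 TATA and 1 CCAAT match. The Leo1 window has 26 CpG and 2 GC boxes, and the Sarnp window 21 CpG with 4 CCAAT matches and 1 GC box. The Dnajc14 window has 35 CpG with none of the motifs. A second annotated Dnajc14 start, not shown, has a window with 32 CpG and none of the motifs. Of 32851 promoter windows of this length, 13.6% held the TATA motif, 37.4% CCAAT and 35.7% the GC box, and the median number of CpG was 7.

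The libraries were alike in size on this scale, with 321551 to 332950 FPKM in all, and their read depth is unknown. Unnamed transcripts, 17991 of the 158719 in the table, took 12.1% to 12.6% of FPKM with MK1775, 12.3% to 12.8% in the libraries labelled Wee1 siRNA and 10.0% to 11.2% in NC. The summed FPKM of 6 epithelial markers was 763 to 781 with MK1775, 705 to 714 in the libraries labelled Wee1 siRNA and 410 to 476 in NC, nearly all of it from Krt8 and Krt18; Epcam stayed under 0.6 FPKM in every library. Immune markers summed to at most 0.698 FPKM, with Cd3e and Adgre1 at 0, blood markers to at most 0.0951 FPKM, and 4 stroma and endothelium markers to 1.24 to 1.88, 1.69 to 2.13 and 0.713 to 1.98 FPKM with MK1775, under the siRNA label and in NC. The part of the keratin difference in the values below was not tested. In bulk RNA, fewer cells that express a gene and less RNA per cell cannot be told apart. The libraries of a group are not stated to come from separate cultures, so the spread between them may be technical.

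**Figure D1:**
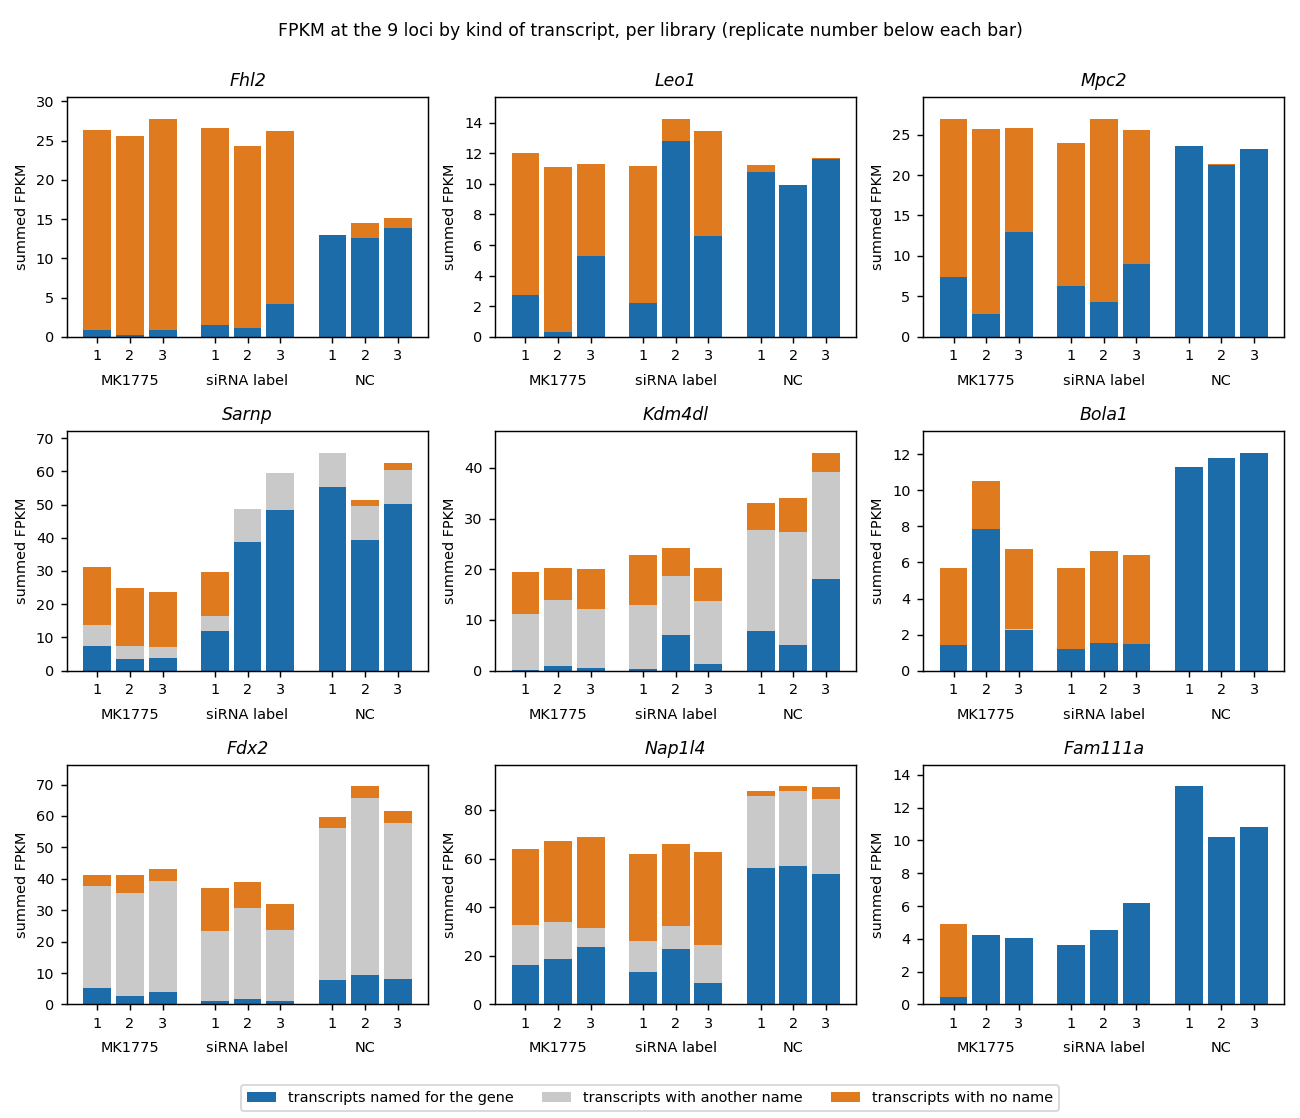
Stacked bars give the summed FPKM of each member's locus in the 9 libraries, split into transcripts named for the gene (blue), transcripts named for another gene at the locus (grey) and unnamed transcripts (orange). In NC the bars are mostly blue or grey, while unnamed transcripts make up most of the Fhl2 bar in all 6 treated libraries, between 22 and 26.9 FPKM.

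Fhl2 gave the clearest exchange. It lies on the minus strand of chromosome 1 from 43162233 to 43236144 (GRCm39, as are all positions of values here). Named transcripts had 0.819, 0.265 and 0.886 FPKM with MK1775, 1.48, 1.18 and 4.19 FPKM in the libraries labelled Wee1 siRNA, and 13.0, 12.6 and 13.9 FPKM in NC. Unnamed transcripts had 25.5, 25.3 and 26.9 FPKM with MK1775, 25.1, 23.1 and 22 FPKM under the siRNA label, and 0.0246, 1.94 and 1.24 FPKM in NC. Every treated library was below NC in the named and above NC in the unnamed transcripts. The whole locus was therefore higher, not lower, with 26.3, 25.5 and 27.8 FPKM with MK1775 and 26.5, 24.3 and 26.2 FPKM under the siRNA label, against 13.1, 14.5 and 15.1 FPKM in NC (1.86 and 1.80 times the NC mean). Both unnamed transcripts, of 6 and 7 exons, begin 3.7 kb upstream of the main named transcript, between the annotated starts, and end within 1 bp of it. The named share of the locus was 2.45% ± 1.22 with MK1775 and 8.81% ± 6.23 under the siRNA label, against 92.8% ± 6.63 in NC (SD, n = 3 each).

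Leo1 showed the exchange in 5 of the 6 treated libraries, with little difference in the sum. Its named transcripts lie on the plus strand of chromosome 9 from 75348806 to 75373714, and the unnamed ones begin upstream, at 75329587. Named FPKM was 2.76, 0.305 and 5.25 with MK1775, 2.23, 12.8 and 6.57 in the libraries labelled Wee1 siRNA, and 10.8, 9.9 and 11.6 in NC. Library 2 of the siRNA label stood above all NC libraries, so that group overlaps NC, whereas the MK1775 libraries do not. Unnamed FPKM was 9.23, 10.8 and 6.03 with MK1775, 8.92, 1.46 and 6.88 under the siRNA label, and 0.451, 0.0 and 0.118 in NC. The same library 2 had the lowest unnamed value of the treated libraries and a named share of 89.8%, against 20% and 48.8% in the other libraries of its group. Whole-locus FPKM was 12.0, 11.1 and 11.3 with MK1775, 11.1, 14.3 and 13.5 under the siRNA label, and 11.3, 9.9 and 11.7 in NC, and all 3 ranges overlapped. The unnamed transcripts, of 14 and 13 exons against 12 in the main named one, begin 19.2 and 19.1 kb upstream and share its 3′ end.

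Sarnp separated the treated groups. Its locus, on the plus strand of chromosome 10 from 128639931 to 128713670, also holds Dnajc14, which encodes a DnaJ co-chaperone and lies upstream. Named Sarnp FPKM was 7.37, 3.64 and 3.8 with MK1775, 11.9, 38.7 and 48.4 in the libraries labelled Wee1 siRNA, and 55.3, 39.3 and 50.1 in NC. With MK1775 all libraries lay below NC, while under the siRNA label library 1 alone was near the MK1775 range and library 3 lay within that of NC. Unnamed FPKM was 17.5, 17.3 and 16.4 with MK1775, 13.2, 0.0598 and 0.029 under the siRNA label, and 0.253, 1.55 and 2.13 in NC. Thus the unnamed transcripts were high in 4 libraries, those of MK1775 and library 1 of the siRNA label. All 6 unnamed transcripts overlap the named spans of both genes. The leading ones have 18 exons, begin 16.3 kb upstream of the main Sarnp transcript and end where it ends. Each begins at the listed 5′ end of a named Dnajc14 transcript. Dnajc14 followed the same libraries, with 6.45, 3.87 and 3.42 FPKM with MK1775, 4.56, 9.97 and 11.2 FPKM under the siRNA label, and 10.1, 10.4 and 10.3 FPKM in NC. Unlike Fhl2, the whole locus was lower with MK1775, at 31.3, 24.8 and 23.6 FPKM, against 29.7, 48.7 and 59.7 FPKM under the siRNA label and 65.7, 51.3 and 62.5 FPKM in NC. Counted for Dnajc14 alone, all transcripts over its span summed to 21.6 ± 2.11 FPKM with MK1775, 13.0 ± 4.18 under the siRNA label and 11.6 ± 1.05 in NC (SD, n = 3 each), so the sign against NC differs between the neighbours.

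Nap1l4 shares its locus, on the minus strand of chromosome 7 from 143067316 to 143153868, with Cars, the upstream gene for cysteinyl-tRNA synthetase. Named Nap1l4 FPKM was 16.4, 18.5 and 23.5 with MK1775, 13.3, 22.7 and 8.72 in the libraries labelled Wee1 siRNA, and 56.1, 56.9 and 53.8 in NC. Unnamed FPKM at the locus was 31.5, 33.4 and 37.6 with MK1775, 35.6, 33.9 and 38.1 under the siRNA label, and 2.08, 1.76 and 4.97 in NC. Neither treated group overlapped NC in either quantity. The leading unnamed transcripts, with 36 and 37 exons, begin 50.9 kb upstream of the main Nap1l4 transcript, at the 5′ end of the main Cars transcript, and end within 4 bp of the Nap1l4 end. Both were listed at 0 in all NC libraries. Named Cars was lower too, at 16.1, 15.5 and 7.81 FPKM with MK1775, 12.8, 9.53 and 15.8 FPKM under the siRNA label, and 29.5, 31.0 and 30.6 FPKM in NC. The transcripts over the Cars span, named or not, nevertheless summed to 46.8 ± 2.11 FPKM with MK1775 and 47.9 ± 4.72 under the siRNA label, against 31.0 ± 0.922 in NC. Over the Nap1l4 span the sums were 46.5 ± 0.727 and 49.7 ± 5.33 FPKM, against 58.4 ± 0.284 in NC (SD, n = 3 each). The treated groups were thus above NC over the upstream gene and below it over the downstream gene.

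Kdm4dl, named for its likeness to the histone demethylase gene Kdm4d and annotated by GENCODE as an unprocessed pseudogene, did not follow its label. The locus on the minus strand of chromosome 9, from 14265286 to 14411778, also holds Endod1, Kdm4d and Gm47317. The single-exon named transcript had 0.102, 0.957 and 0.504 FPKM with MK1775, 0.223, 6.96 and 1.38 FPKM in the libraries labelled Wee1 siRNA, and 7.83, 5.11 and 18.0 FPKM in NC. MK1775 libraries were all below NC, while library 2 of the siRNA label lay within the NC range. Unnamed FPKM was 8.3, 6.26 and 7.81 with MK1775, 9.75, 5.5 and 6.57 under the siRNA label, and 5.31, 6.8 and 3.75 in NC, and the groups overlapped. Among single unnamed transcripts, the one that spans Kdm4dl and Endod1 had 4.73, 6.26 and 4.37 FPKM with MK1775, 1.69, 5.5 and 6.12 FPKM under the siRNA label, and 2.18, 1.08 and 0.985 FPKM in NC, above NC in 5 of the 6 treated libraries. Another, over Kdm4dl and Kdm4d, stood the other way, with 3.57, 0.0 and 0.0584 FPKM with MK1775, 0.0, 0.0 and 0.45 FPKM under the siRNA label, and 3.13, 5.72 and 2.77 FPKM in NC. The third, over the same genes, had 3.38 FPKM in replicate 3 of MK1775 and 8.06 FPKM in library 1 of the siRNA label and was listed at 0 in the other 7 libraries. Endod1, which encodes a protein with an endonuclease domain, averaged 11.6 ± 0.717 FPKM with MK1775 and 11.8 ± 0.704 under the siRNA label, against 21.1 ± 1.14 in NC (SD, n = 3 each), and with it the whole locus was lower in both treated groups. Reads that match both Kdm4dl and Kdm4d may be divided uncertainly.

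**Figure D2:**
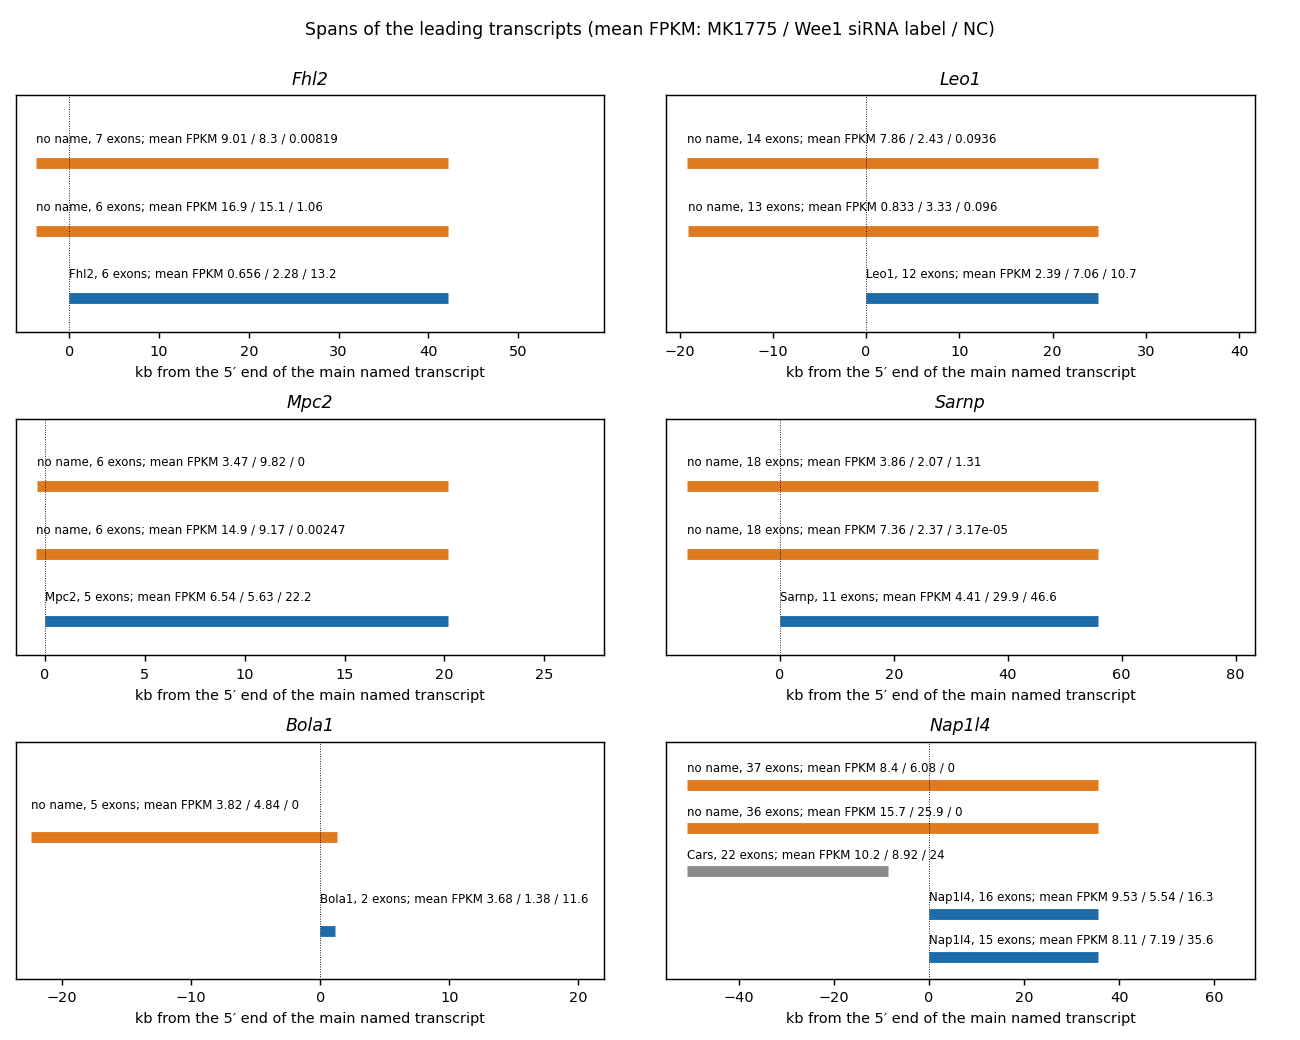
Horizontal bars give the genomic span of each transcript that held at least 10% of its locus FPKM in the mean of any group, at 6 loci, against the distance in kb from the 5′ end of the main named transcript (blue member, grey neighbour, orange unnamed). Each orange bar begins left of 0, from 0.4 kb at Mpc2 to 50.9 kb at Nap1l4, and the numbers above the bars are mean FPKM with MK1775, under the siRNA label and in NC.

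Among the mitochondrial members, Mpc2 had a similar sum under other names. It lies on the plus strand of chromosome 1 from 165288165 to 165308783. Named FPKM was 7.41, 2.84 and 12.9 with MK1775, 6.27, 4.27 and 9.01 in the libraries labelled Wee1 siRNA, and 23.6, 21.3 and 23.2 in NC. Unnamed FPKM was 19.5, 22.9 and 12.9 with MK1775, 17.7, 22.7 and 16.6 under the siRNA label, and 0.0, 0.0074 and 0.0 in NC. Every treated library was below NC in the named transcripts and far above it in the unnamed ones. The whole locus had 26.9, 25.7 and 25.8 FPKM with MK1775, 23.9, 27.0 and 25.6 FPKM under the siRNA label, and 23.6, 21.3 and 23.2 FPKM in NC, just above NC in every treated library (1.15 and 1.12 times the NC mean). Here the unnamed transcripts begin only 441 and 422 bp upstream of the main named one and share its 3′ end. Another named Mpc2 transcript, of 1 exon, begins close to them, 400 bp upstream, and had at most 0.475 FPKM in any library. The outermost unnamed 5′ end lies 113 bp from Dcaf6, a gene on the other strand. Dcaf6 had 5.01 ± 0.402 FPKM with MK1775, 5.55 ± 0.906 under the siRNA label and 3.12 ± 0.255 in NC (SD, n = 3 each). The listed spans of Dcaf6 and Mpc2 do not overlap. Without strand-aware counting, which is not stated, reads of any transcripts that overlap on opposite strands cannot be told apart.

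Bola1 had lower named transcripts, an unnamed transcript listed at 0 in NC and a lower sum. Its locus lies on the minus strand of chromosome 3 from 96103773 to 96127484. Named FPKM was 1.4, 7.84 and 2.28 with MK1775, 1.21, 1.51 and 1.48 in the libraries labelled Wee1 siRNA, and 11.3, 11.8 and 12.1 in NC. The single unnamed transcript had 4.31, 2.67 and 4.49 FPKM with MK1775 and 4.46, 5.1 and 4.95 FPKM under the siRNA label, and was listed at 0 in all 3 NC libraries. Replicate 2 of MK1775 held the most named and the least unnamed FPKM of the treated libraries, although it too stayed below NC in the named transcripts. The whole locus had 5.71, 10.5 and 6.78 FPKM with MK1775, 5.68, 6.61 and 6.43 FPKM under the siRNA label, and 11.3, 11.8 and 12.1 FPKM in NC, so the gain in unnamed FPKM was smaller than the loss in named FPKM. The unnamed transcript has 5 exons against 2, is 2131 bases long against 880, begins 22.4 kb upstream and ends 131 bp beyond the named end. It begins at the annotated 5′ end of Gm15444, on the same strand, which had at most 0.0033 FPKM in every library. A named Bola1 transcript that begins 22.1 kb upstream was listed at 0 in all libraries. The 5′ end of the unnamed transcript also lies 951 bp from the histone gene H2bc21 on the other strand. H2bc21 had 4.56 ± 0.322 FPKM with MK1775 and 3.98 ± 0.58 under the siRNA label, against 0.419 ± 0.112 in NC (SD, n = 3 each).

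Fdx2, a ferredoxin that donates electrons in iron-sulphur cluster assembly, lies in a crowded locus on the minus strand of chromosome 9, from 20973689 to 21003304. The upstream neighbour is Raver1, which encodes an RNA-binding protein, and Gm38431 is listed in RefSeq synonyms as a joined Raver1 and Fdx2 transcript. Named Fdx2 FPKM was 5.14, 2.69 and 3.91 with MK1775, 0.959, 1.76 and 1.16 in the libraries labelled Wee1 siRNA, and 7.65, 9.53 and 7.97 in NC. The 3 groups did not overlap, with the siRNA label lowest. Unnamed FPKM was 3.49, 5.74 and 3.84 with MK1775, 13.8, 8.09 and 8.43 under the siRNA label, and 3.55, 3.8 and 3.83 in NC. Only the siRNA label stood above NC. Gm38431 had 0.791, 11 and 3.13 FPKM with MK1775, 7.21, 13.0 and 4.86 FPKM under the siRNA label, and 1.55, 0.8 and 0.988 FPKM in NC, so the annotated joined transcript also stood above NC in all 3 libraries of the siRNA label and in 2 of the 3 with MK1775. Raver1 averaged 27.6 ± 5.47 FPKM with MK1775 and 15.2 ± 0.882 under the siRNA label, against 49.3 ± 4.07 in NC (SD, n = 3 each). Because Raver1 dominates, the whole locus differed from NC by -0.59 with MK1775 and -0.81 under the siRNA label (log2 of FPKM + 1). The transcripts over the Fdx2 span alone differed by -0.01 with MK1775 and 0.54 under the siRNA label, so the sign for the siRNA label turns with what is summed.

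Fam111a went against the label. It lies on the plus strand of chromosome 19 from 12523104 to 12567132. Named FPKM was 0.456, 4.26 and 4.03 with MK1775, 3.65, 4.53 and 6.18 in the libraries labelled Wee1 siRNA, and 13.3, 10.2 and 10.8 in NC, with both treated groups below NC. The single unnamed transcript had 4.45 FPKM in replicate 1 of MK1775 and was listed at 0 in the other 8 libraries. In that library the sum, 4.9 FPKM, was close to the 4.26 and 4.03 FPKM of its group. The whole locus averaged 4.4 ± 0.452 FPKM with MK1775 and 4.78 ± 1.29 under the siRNA label, against 11.4 ± 1.68 in NC (SD, n = 3 each), so adding the unnamed transcript did not bring the locus near NC.

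Set side by side, the named transcripts of 9 of 9 members lay below NC in every MK1775 library and those of 6 of 9 in every library of the siRNA label. Over all 10453 named genes tested, 30.1% were wholly below NC with MK1775 and 28.1% under the siRNA label, and the members were picked for being low. Unnamed sums lay wholly above NC at 6 of 9 loci in each treated group (Fhl2, Leo1, Mpc2, Bola1 and Nap1l4 in both, Sarnp with MK1775 and Fdx2 under the siRNA label), against 30.0% and 30.2% of the 5177 loci whose unnamed sums passed the filter. Those 5177 include loci without any gene name, unlike the members' loci. The unnamed sum of Fam111a did not pass the filter. Whole loci went both ways. With MK1775, Fhl2 and Mpc2 were wholly above NC, Sarnp, Kdm4dl, Bola1, Fdx2, Nap1l4 and Fam111a wholly below, and Leo1 overlapped. Under the siRNA label 2 were above (Fhl2 and Mpc2), 5 below, and Leo1 and Sarnp overlapped. Over all 12228 loci tested, 32.6% were wholly above and 30.2% wholly below NC with MK1775, and 33.0% and 28.0% under the siRNA label.

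**Figure D3:**
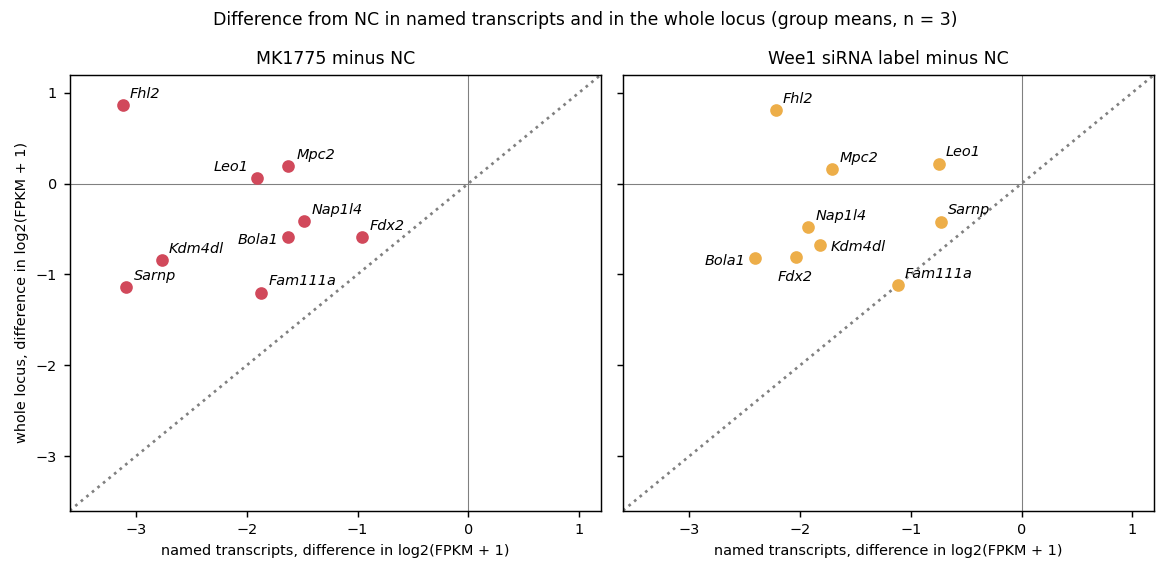
Points give, for each member, the difference of group means from NC on log2(FPKM + 1) in the named transcripts (horizontal) and in the whole locus (vertical), for MK1775 on the left and the siRNA label on the right; the dotted line marks equal differences. All points with MK1775 lie above the line, from Fhl2 at -3.12 named and 0.86 whole to Fam111a at -1.87 and -1.20, and under the siRNA label Fam111a lies on it at -1.12.

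The share of locus FPKM held by named transcripts of any gene summarises the exchange. Averaged over the 9 loci it was 45.1% ± 7.48 with MK1775 and 53.1% ± 8.57 under the siRNA label, against 96.1% ± 0.851 in NC (SD over 3 libraries each). With MK1775 the difference in share from NC was -90.3 percentage points at Fhl2, -74.2 at Leo1, -70.5 at Mpc2, -62.7 at Sarnp, -55.7 at Bola1, -47.8 at Nap1l4, -30.2 at Fam111a, -22.7 at Kdm4dl and -4.55 at Fdx2. Under the siRNA label the order was another: -83.9 points at Fhl2, -77.6 at Bola1, -74.3 at Mpc2, -53.3 at Nap1l4, -45.5 at Leo1, -22.2 at Fdx2, -17.7 at Kdm4dl, -12.6 at Sarnp and 0.0 at Fam111a. At loci with other genes these values depend on what is counted, since Endod1 and Raver1 add named FPKM. As the share of the member's own transcripts among those over its span, the difference was -54.9 points with MK1775 and -36.6 under the siRNA label at Kdm4dl, and -30.1 and -56.6 at Fdx2, while it was -63.6 and -12.9 at Sarnp and -53.4 and -65.9 at Nap1l4. Such losses were not rare in the table. Of 4940 loci with named and unnamed transcripts, 9.51% had a share at least 20 points below NC with MK1775 and 9.07% under the siRNA label, while 4.25% and 5.06% had one at least 20 points above. The median over all these loci was -1.01 and -0.978 points, beside -55.7 and -45.5 over the members. Fhl2 ranked 8 among the 4940 losses with MK1775, Leo1 17, Mpc2 20, Sarnp 29, Bola1 40 and Nap1l4 63, whereas Fam111a ranked 202, Kdm4dl 371 and Fdx2 1744. Under the siRNA label Fhl2 ranked 11, Bola1 13, Mpc2 15, Nap1l4 43 and Leo1 68, and Fdx2 381, Kdm4dl 535, Sarnp 839 and Fam111a 2880.

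The form of the leading unnamed transcripts was not itself used to choose the members, but it may not be independent of that choice. The other loci set beside them were not matched for a fall in named share or for the number of gene names. Of the 16 that held at least 10% of their locus in some group, 16 began upstream of the main named transcript, 15 had more exons, 14 were longer and 11 ended within 10 bp of the named 3′ end. All leading ones at Fhl2, Leo1, Mpc2, Sarnp, Nap1l4 and Fam111a shared the named end, and those at Kdm4dl, Bola1 and Fdx2 did not. Counted at every locus against its most abundant named transcript of any gene, a comparison added after seeing the data, 15 of the 16 (93.8%) began upstream at the members' loci and 2430 of 6406 (37.9%) at the 3931 other loci. By the same count 93.8% had more exons, against 43.5% elsewhere, 81.2% were longer, against 58.6%, and 68.8% shared the 3′ end, against 53.8%. Of 18 unnamed transcripts with a mean of at least 1 FPKM at the members' loci, 10 (55.6%) overlapped the spans of 2 or more gene names, at Sarnp, Kdm4dl, Bola1, Fdx2 and Nap1l4, compared with 818 of 5305 (15.4%) at other loci. A 5′ end before every named transcript of the locus was found for 4 of the 18 (22.2%) and for 21.6% at other loci. These are shares of transcripts at few loci and carry no test.

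Which unnamed transcript carried the FPKM varied between libraries more than the sum did. At Mpc2 the first had 19.5, 22.9 and 2.52 FPKM with MK1775 and 3.43, 22.7 and 1.37 FPKM under the siRNA label, and the second 0.0, 0.0 and 10.4 FPKM with MK1775 and 14.2, 0.0 and 15.2 FPKM under the siRNA label. They replaced each other from library to library, with coefficients of variation of 88.1% and 112% over the 6 treated libraries, against 20.4% for their sum. At Nap1l4 the sum varied by 7.36% and the 2 leading single transcripts by 37.7% and 53.2%, and another, smaller one by 143%. At Fhl2 both were steadier, at 7.17% for the sum and 11% and 16.7% for the single transcripts. At Sarnp, replicate 1 of MK1775 held its unnamed FPKM in 3 transcripts of 13 exons (5.07, 6.98 and 5.15 FPKM) that were at most 0.1 FPKM elsewhere, while replicates 2 and 3 held theirs in the 18-exon ones.

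**Figure D4:**
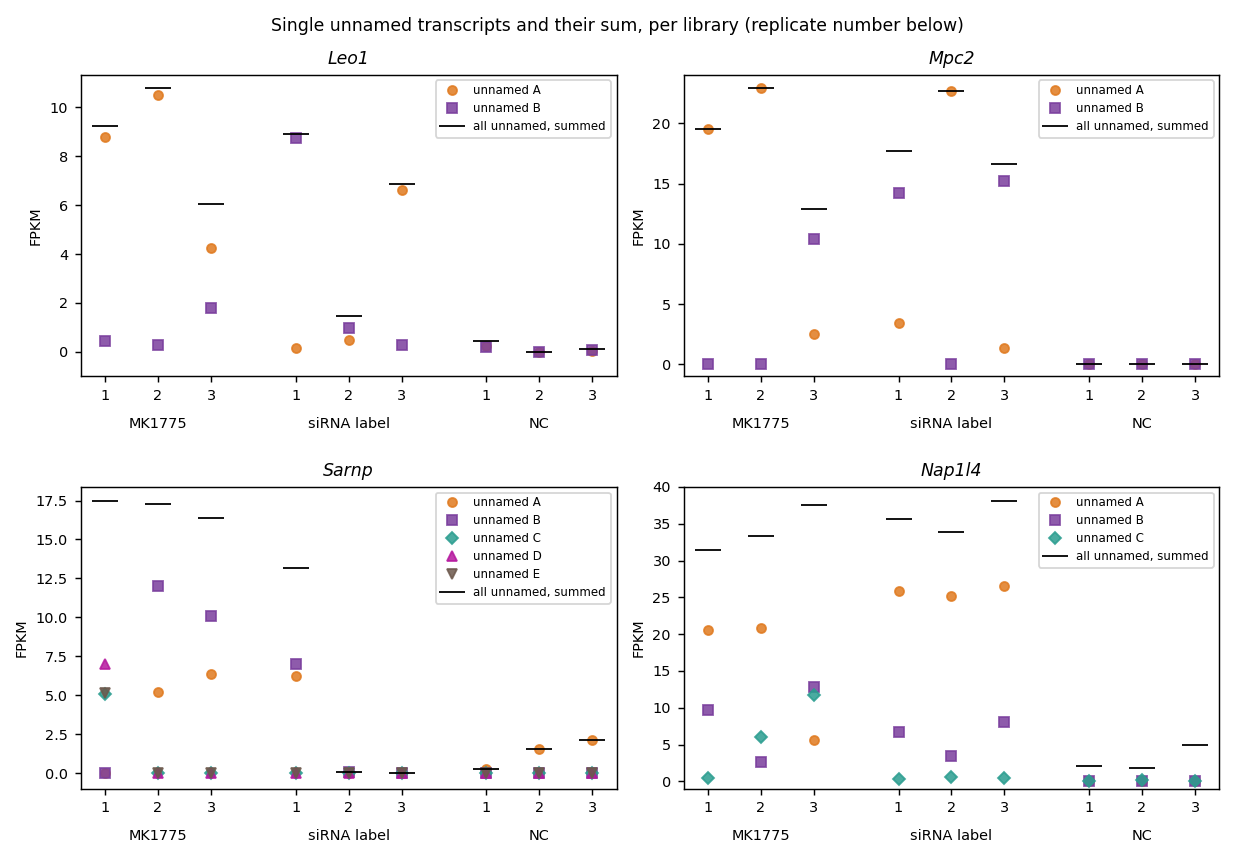
Symbols give the FPKM of single unnamed transcripts (letters A to E, numbered within each gene) in the 9 libraries at Leo1, Mpc2, Sarnp and Nap1l4, and black dashes the sum of all unnamed transcripts of the locus. At Mpc2 the sum stayed between 12.9 and 22.9 FPKM in the treated libraries, while A and B replaced each other.

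The direct comparison of MK1775 with the siRNA label was not known to have been used to choose the members, and it is the comparison in which they were tested. In limma's test with Benjamini-Hochberg adjustment over all features, 0 of 9 members differed in their named transcripts (adjusted p = 0.376 to 0.983, 3 members at an unadjusted p under 0.05, as were 5.89% of all named genes). Over all named genes 0.00957% were called, which is 1 of 10453. For whole loci 0 of 9 were called (adjusted p = 0.381 to 0.916, 2 at an unadjusted p under 0.05), beside 0 of 12228 loci in all, of which 982 (8.03%) had an unadjusted p under 0.05. For the 8 unnamed sums tested, 0 were called (adjusted p = 0.421 to 0.985, 2 at an unadjusted p under 0.05, beside 8.5% of all), against 0.0193% of 5177, and for 41 single transcripts 0 were called (adjusted p = 0.316 to 1.0, 9 at an unadjusted p under 0.05, beside 6.22% of all), against 0.023% of 21742. A miss of the threshold does not show that the groups are alike, and several intervals are wide.

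Sarnp had the widest gap between the treated groups. The difference MK1775 minus siRNA label was -2.36 for its named transcripts (log2 of FPKM + 1, 95% interval -3.47 to -1.26, adjusted p = 0.41 in limma's test), 2.86 for its unnamed ones (0.66 to 5.05, adjusted p = 0.486), and -0.72 for its whole locus (-1.23 to -0.22, adjusted p = 0.381). The unnamed difference rests on how library 1 of the siRNA label is treated: without it the difference was 4.11 and was called. Fdx2 went the opposite way, with a difference of 1.08 in the named transcripts (0.62 to 1.55, adjusted p = 0.376) and of -1.04 in the unnamed ones (interval -1.57 to -0.50, adjusted p = 0.421). Named Fhl2 differed by -0.90 (-1.62 to -0.18, adjusted p = 0.759), while its whole locus differed by 0.05 (-0.10 to 0.19). For whole loci of Fhl2, Mpc2 and Nap1l4 the intervals stayed within 0.20 of 0, at -0.10 to 0.19, -0.09 to 0.16 and -0.03 to 0.17.

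**Figure D5:**
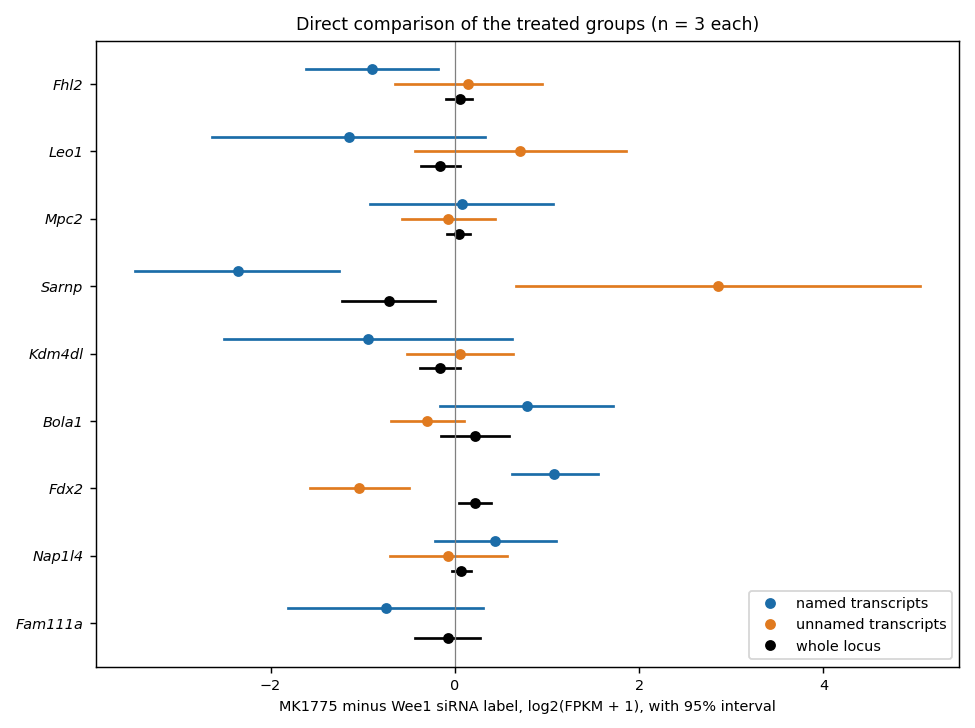
Points give the difference MK1775 minus siRNA label on log2(FPKM + 1) for the named transcripts, unnamed transcripts and whole locus of each member, and lines the 95% interval from limma's fit (n = 3 each). Named and unnamed values of Sarnp (-2.36 and 2.86) and Fdx2 (1.08 and -1.04) lie on opposite sides of 0, and whole-locus intervals are the narrowest.

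Genes that work with the members were measured in their own named transcripts, in 8 lists of 77 genes, of which 67 were tested. With MK1775, 16 rose and 20 fell against NC, beside 41.0% of all named genes called in either direction, and under the siRNA label 17 rose and 22 fell, beside 42.8%. The median difference was -0.01 in both (log2 of FPKM + 1), against -0.04 and -0.01 over all named genes. Both comparisons use the same NC libraries. Counted over whole loci, a choice made after seeing the data, 20 rose and 24 fell of 68 with MK1775 and 22 rose and 26 fell under the siRNA label, beside 54.9% and 57.9% of all loci called. In both comparisons the fallen loci include that of Kdm4d, which is also the locus of the member Kdm4dl. Its fall against NC is therefore a description and carries no test.

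In the Paf1 complex, the partners of Leo1, 2 of 5 rose and 0 fell in each comparison. Paf1, a subunit, averaged 27.8 ± 1.48 FPKM with MK1775 and 28.6 ± 1.12 under the siRNA label, against 19.5 ± 0.63 in NC (SD, n = 3 each). It rose by 0.49 and 0.53 (limma adjusted p = 0.000253 and 0.000167). Ctr9, another subunit, also rose, by 0.39 and 0.41. Of 14 genes of the TREX complex and mRNA export, where Sarnp acts, 2 rose and 4 fell in each comparison. Chtop, an RNA-binding export factor, rose to 63.7 ± 6.65 and 68.7 ± 4.79 FPKM, against 36.0 ± 2.1 in NC (0.80 and 0.92, limma adjusted p = 0.000193 and 9.87e-05), and the TREX subunit Thoc3 fell by 0.62 and 0.70. Of 9 LIM-only genes 5 were tested, and 3 that are no Fhl genes, Csrp1, Crip1 and Crip2, rose in each comparison. Fhl3, the one tested paralogue of Fhl2, differed by -0.53 and -0.77 (limma adjusted p = 0.192 and 0.0677), and its whole locus fell by 0.71 and 0.79 (adjusted p = 4.87e-05 and 2.23e-05). The leading 2 by adjusted p were Csrp1 (50.2 ± 0.306 and 45.5 ± 2.4 FPKM, against 30.1 ± 2.52 in NC) and Crip2 (0.49 and 0.64).

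Chromatin partners moved by gene. Of 4 NAP-family histone chaperones tested among 8, 1 rose and 2 fell in each comparison: Nap1l1, a relative of Nap1l4, fell to 137 ± 5.02 and 140 ± 5.91 FPKM, against 209 ± 7.7 in NC (-0.61 and -0.58, limma adjusted p = 4.93e-05 and 6.01e-05), and Tspyl1 rose by 0.51 and 0.53. Of 3 KDM4 demethylases tested, Kdm4c rose in each comparison (0.43 and 0.41). Kdm4a rose under the siRNA label (0.62, limma adjusted p = 0.0295), with 0.32 and an adjusted p of 0.222 with MK1775. The whole Kdm4a locus differed less, by 0.16 under the siRNA label and 0.11 with MK1775 (limma adjusted p = 0.0351 and 0.137). Of PCNA, its loader and the crosslink protease Sprtn, 2 of 7 rose and 4 fell in each comparison. Rfc5, a subunit of the clamp loader, fell to 19.3 ± 0.244 and 19.6 ± 0.663 FPKM, against 36.3 ± 2.5 in NC, and Pcna, the sliding clamp of DNA synthesis, to 166 ± 5.29 and 169 ± 6.7 FPKM, against 246 ± 7.12 in NC (SD, n = 3 each).

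Mitochondrial partners were counted in 2 lists. Of 17 genes of iron-sulphur assembly, the pathway of Fdx2 and Bola1, 2 rose and 5 fell with MK1775, and 1 rose and 7 fell under the siRNA label. Nfs1, the cysteine desulphurase that supplies sulphur, averaged 9.09 ± 0.379 and 9.86 ± 0.209 FPKM, against 17.4 ± 1.09 in NC (-0.87 and -0.76, limma adjusted p = 2.37e-05 and 4.71e-05); its locus holds 4 names and fell by 0.30 and 0.38. Of 12 tested genes of pyruvate use, the pathway that Mpc2 feeds, 3 rose and 5 fell with MK1775, and 4 rose and 5 fell under the siRNA label. The pyruvate dehydrogenase kinase Pdk1 fell in each comparison (-1.28 with MK1775 and -0.74 under the siRNA label), as did its whole locus (-0.76 and -0.83). The phosphatase Pdp2 fell by 0.61 in each comparison, and Pdp1 fell in each too (-0.62 and -0.66). Between the treated groups 0 of 67 partner genes were called in limma's test, and of the pair of genes per list with the smallest values the adjusted p was 0.532 for Pdk1 (-0.54) to 0.973 for Kdm4c.

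Loci most like the members were sought among 1735 others with a mean of at least 1 FPKM and a difference in named share, MK1775 minus NC, of -4.55 points or lower. Likeness was Pearson's r over the 9 libraries between a locus's named share and the members' mean named share; the points share libraries and group differences, so r is a description. The 5 highest were the locus of Kctd11 and Tmem95 (0.98), Acss2 (0.973), Fbxw4 (0.973), Zfp207 (0.969) and Kat2b-ps (0.967), and 17 reached 0.95. Their named shares were 86.3%, 20.2%, 42.9%, 46.4% and 4.19% with MK1775, 86.3%, 37.3%, 50%, 43.2% and 5.71% under the siRNA label, and 98.7%, 87.8%, 97.9%, 83.0% and 100% in NC, in that order. The whole locus was higher in both treated groups at 4 of the 5: at Acss2, which encodes a cytosolic acetyl-CoA synthetase, with 14.1 and 14.9 FPKM, against 8.56 FPKM in NC, at Kctd11 and Tmem95 with 6.01 and 6.21, against 3.47 in NC, at Fbxw4 with 5.01 and 4.74, against 1.77 in NC, and at Kat2b-ps with 2.4 and 2.5, against 0.0131 in NC. It was lower at Zfp207, with 33.8 and 36.3 FPKM, against 41.1 FPKM in NC. Likeness in share does not mean that named FPKM was lower than in NC. By these mean shares and sums, named FPKM was lower in both treated groups at Acss2 and Zfp207 only. At Kctd11 and Tmem95, Fbxw4 and Kat2b-ps it was higher, unlike at the members. The 100% share of Kat2b-ps in NC is a share of 0.0131 FPKM.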

How the data were processed

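The authors deposited FPKM values per transcript and library (GRCm39); per the submitters' processing notes, which give no versions, reads went through FastQC, Trim Galore, HISAT2 and StringTie. RNA was total RNA, and libraries were made with an NEBNext Ultra kit, per the labels' protocols; the labels state neither RNA selection nor strand. Depth is unknown, since FPKM hold no counts, so no counting interval is given. Columns were assigned to libraries through the sample descriptions.

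FPKM were summed by gene name, by locus, and over unnamed transcripts of a locus; 19 names on more than 1 chromosome were left out. Features with a mean of at least 1 FPKM were tested on log2(FPKM + 1), which understates changes of low genes, with limma 3.58.1 in R 4.3.3 (eBayes with trend, all 9 libraries, 3 group means, two-sided, Benjamini-Hochberg, threshold 0.05), checked on simulated data. An exact permutation test of 3 against 3 cannot go below 0.1.

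Members and lists were chosen with earlier results of these data known. The text names all members, transcripts with at least 10% of locus FPKM, per partner list the 2 smallest adjusted p, and the 5 loci most like the members; smaller transcripts and the neighbours Dcaf6 and H2bc21 were picked with their values in view. Alternatives were a pseudocount of 0.1, no filter or a minimum of 5 FPKM, size factors, a replicate block, overlapping transcripts only, and leaving out each library; shares by FPKM × length, partner loci and the form of leading unnamed transcripts at other loci were added after seeing the data.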

Additional observations from a re-analysis of the deposited data

How the results depend on the processing

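Between the treated groups, the counts of features called by limma were small and moved with the settings. Named genes called went to 11 with no filter, and ranged from 0 to 3 without single libraries; whole loci went to 7 with no filter and stayed at 0 without single libraries. Unnamed sums went to 3 with a pseudocount of 0.1 and to 0 with a minimum of 5 FPKM, and ranged from 1 to 8 without single libraries; single transcripts went to 12 with no filter and ranged from 3 to 13. Against NC, a minimum of 5 FPKM left 4406 whole loci called with MK1775 and 4646 under the siRNA label, where fewer loci were tested. Without single libraries, named genes called ranged from 3568 to 4335 and from 3755 to 4361, and whole loci from 5851 to 6755 and from 6295 to 7192.

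Replicate numbers are shared between groups, but same-numbered libraries did not deviate together (correlations of deviations from the group means between -0.276 and 0.106). With the number as a replicate block, calls between the treated groups were 0 named genes, 0 unnamed sums and 1 transcript.

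The mean named share of the members against NC ranged from -54.1 to -46.8 points with MK1775 and from -46.4 to -38.2 under the siRNA label without single libraries. It was -58.1 and -50.4 points for own transcripts among overlapping ones, and -56.1 and -48.5 by FPKM × length. For single members and partner lists, 219 values kept their direction and call, and 14 moved, under settings that left out no library. The Fdx2 locus under the siRNA label reversed to 0.54 over overlapping transcripts. What depth limits is unknown, as FPKM hold no counts.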
